A study of Danio rerio with 6 samples.

Results

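Collagens are secreted proteins whose chains wind in threes into a rigid triple helix, and they fall into families by the structures they build. Fibrillar collagens pack into the fibres that carry tension, type IV collagens form the sheet-like network of basement membranes, and FACIT collagens (fibril-associated collagens with interrupted triple helices) decorate the surface of fibres and link them to other matrix. Other types build anchoring fibrils, hexagonal nets, beaded filaments or membrane-spanning proteins. In the zebrafish embryo collagen is made early by the notochord, whose sheath it stiffens, by the epidermis and by the mesenchyme that will form dermis, fin fold and skeleton.

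The collagen genes described here were taken by the text of the authors' best protein match, which had to contain "collagen alpha" or "collagen, type" in any case. Of 24832 gene IDs in the RNA tables, 54 matched, and the 41 with 10 or more reads over both libraries are the members. They were thus selected on the summed reads of both libraries, and a member's presence and total are a description. By the type named in the same text, 13 members were fibrillar, 6 were type IV, 10 were FACIT and 12 belonged to other types.

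RNA-seq was done on whole zebrafish embryos at the 10-somite stage, with 1 control library and 1 library of dnmt1 morphants, embryos treated with an antisense morpholino against dnmt1, the maintenance DNA methyltransferase. The control is labelled as normal embryos. For the strain, the number of embryos pooled, the type of morpholino and injection of the controls, the sources used here give nothing. The libraries held 9.90 and 10.05 M reads (megareads) assigned to genes. The dnmt1 transcript itself had 2423 control and 3194 morphant reads, which does not check a block of translation. With 1 library per group no difference has a replicate check and none was tested. All intervals are 95% exact (Clopper-Pearson or Poisson) and cover counting error only. In whole embryos, more cells of a kind and more RNA per cell cannot be told apart.

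The members were long genes of mostly modest abundance. Their median listed length was 5229 bases, against 2082 over all genes with 10 or more reads, so levels between genes are compared only as RPKM, the deposited reads scaled to gene length and library size. In the control library RPKM ranged from 0.0734 for col17a1b to 44.2 for col8a1a. Only 5 members were above 10 RPKM and 16 were below 1. The median covered share of a member's length was 44.3% in control and 54.0% in morphant embryos, and 6 members were covered over more than 90% in the control.

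**Figure D1:**
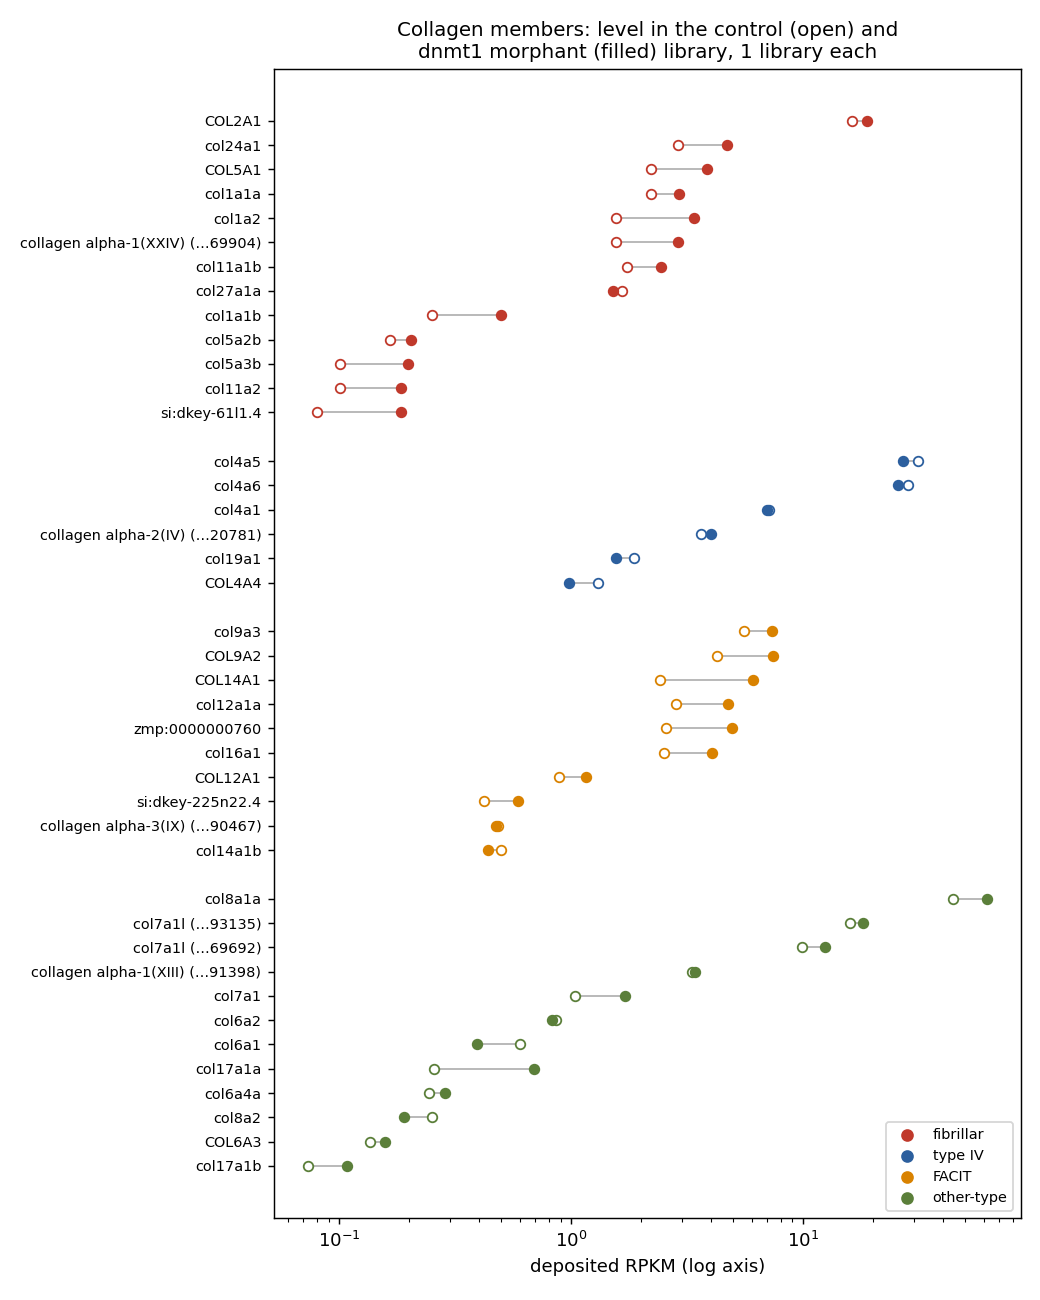
Deposited RPKM (log axis) of each of the 41 members in the control (open) and morphant (filled) library, 1 library each, ordered by mean level within each class; digits in brackets are the end of the gene ID. Filled points lie to the right for 30 of 41 members, where 54.2% of all genes with 10 or more reads had a log2 ratio above 0. Those of the type IV genes col4a5 and col4a6 lie to the left.

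The control order of the members was led by col8a1a, a chain of the short network-forming type VIII that the zebrafish notochord makes. Next came the type IV chain genes col4a5 (31.4 RPKM, interval 30.04 to 32.8) and col4a6 (28.4, 27.3 to 29.6), whose intervals did not overlap with each other or with that of col8a1a (41.4 to 47.0). The alpha-1(II) gene ENSDARG00000011407 followed at 16.3 RPKM (15.1 to 17.7) and its interval overlapped with that of its neighbour in the order, a short fragment of the type VII gene col7a1l (15.9, 12.6 to 19.8). From rank 8 down, each member's interval overlapped with that of the next, and over the whole order this held for 34 of 40 neighbouring pairs. The ranking was much the same in the morphant library: the first 6 places were identical and 9 members stood among the 10 highest in both. This order leaves out abundant collagen genes that the text rule missed. Among them were col18a1a, at 67.1 RPKM in the control and so above col8a1a, and col15a1b, at 43.9.

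Among the members, type IV collagen took the largest part of the reads, and the part was smaller in the morphant library. Reads are not scaled to gene length, and by summed RPKM type IV did not come first. Control embryos had 73.8 RPKM for type IV and 76.6 for the other types. Morphant embryos had 66.2 and 100.2. The shares of reads also depend on the text rule, which missed abundant collagen genes of other classes. Among those missed were col18a1a (4227 control and 5116 morphant reads) and a col2a1a gene (ENSDARG00000069093, 1716 and 2962). Of all member reads, type IV genes held 56.5% (interval 55.5 to 57.5) in the control, against 45.0% (44.1 to 46.0) in the morphant library. The pair col4a5 and col4a6 alone held 46.1% and 36.1%. Summed over members, collagen reads came to 931 CPM (counts scaled to library size) in the control, against 1049 CPM in the morphant library, a ratio of 1.13 (1.10 to 1.16). This sum joined classes that went different ways. Type IV reads had a ratio of 0.898 (0.863 to 0.934), fibrillar reads 1.38 (1.28 to 1.48), FACIT reads 1.70 (1.56 to 1.85) and reads of the other types 1.32 (1.25 to 1.41).

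**Figure D2:**
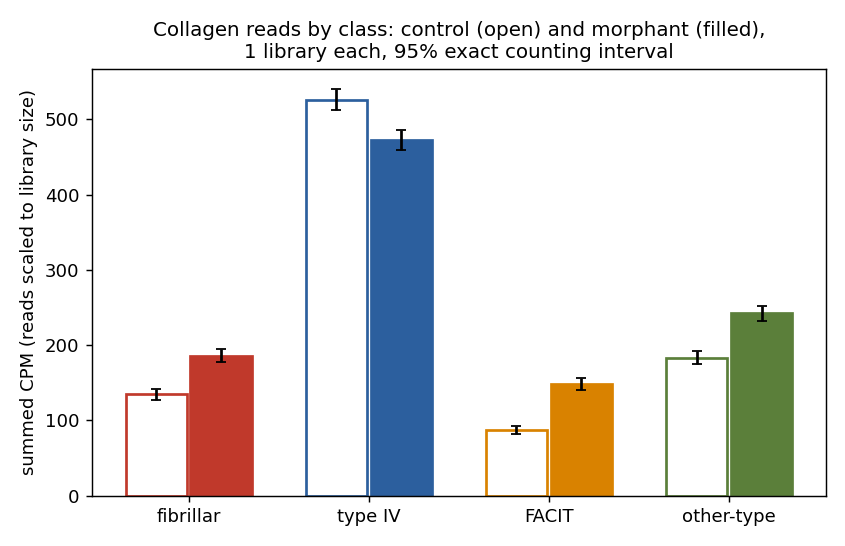
Summed CPM (reads scaled to library size) for the members of each collagen class in the control (open bars) and morphant (filled bars) library. There is 1 library each, with 95% exact counting intervals. Type IV stands at 526 CPM in the control and 472 in morphant embryos, while the other 3 classes stand higher in the morphant library.

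Ratios of single members (CPM, morphant over control) are given for the 27 members with 50 reads or more over both libraries. Of these, 10 were at least 1.5-fold higher in the morphant library, where 6.56% of the 13575 genes with as many reads were that much higher. None was at least 1.5-fold lower, against a background of 3.4%. At least 2-fold higher were 2 members (background 1.87%), and 2-fold lower was none (background 0.663%). The median log2 ratio (log2 CPM, prior count of 2) was 0.39 over these members and 0.03 over all genes, and 20 of 27 members were above 0, against 54.3% of all genes. The counting interval lay above 1 for 16 members (background 19.5%) and below 1 for 3 (background 15.8%), and it held 1 for the other 8. The background share depends on depth. Among the 19 members with 200 reads or more, 6 were at least 1.5-fold higher, where 3.16% of all genes that deeply read were. Where control reads are few, a gene reaches the minimum through its morphant reads. This applied to 1 of the 27, col24a1, which had under 25 control reads.

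**Figure D3:**
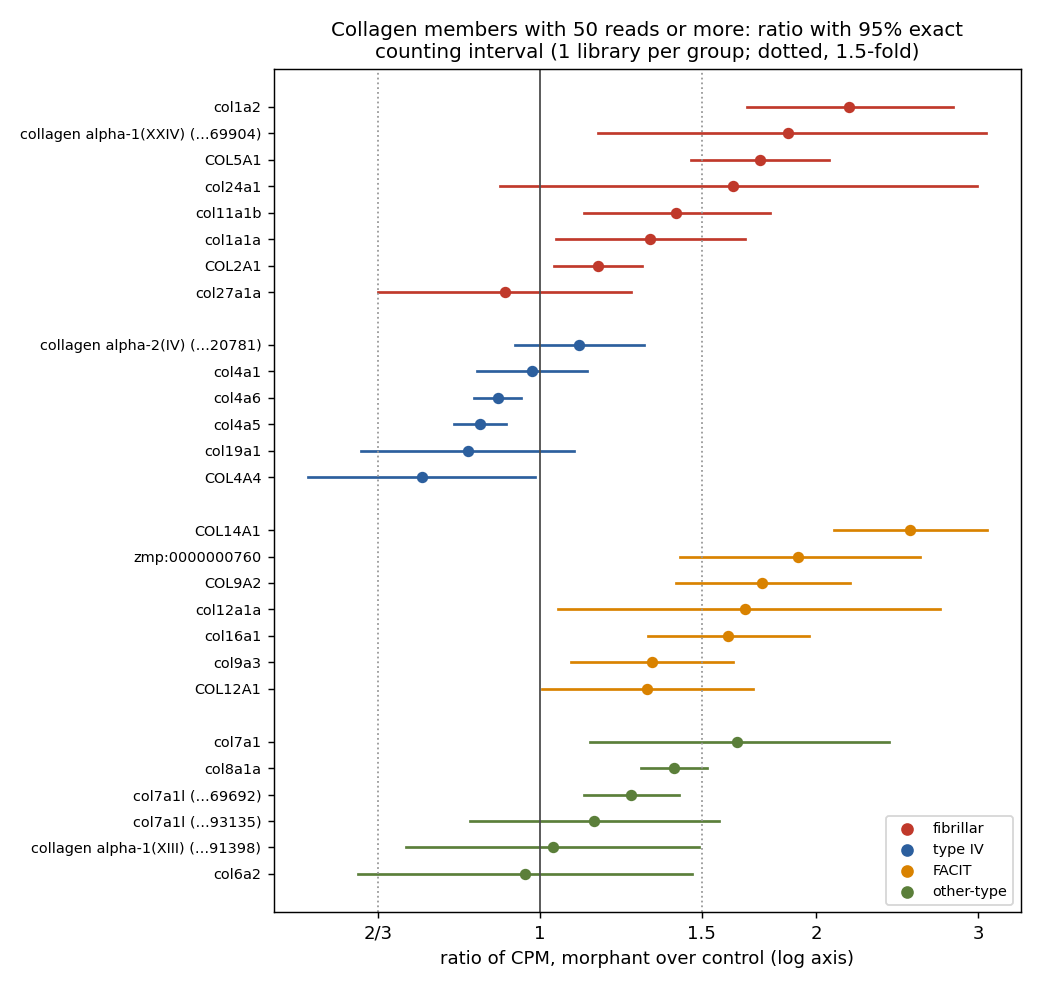
Ratio of CPM, morphant over control (log axis), for the 27 members with 50 reads or more, with 95% exact counting intervals and dotted lines at 1.5-fold. All 7 FACIT members lie above 1, while 5 of 6 type IV members lie below 1.

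Fibrillar collagens were higher in the morphant library for 7 of the 8 genes with 50 reads or more (54.3% of all genes). Of the 8, 4 were higher by 1.5-fold or more (background 6.56%), and the median log2 ratio was 0.57. Among these 4 are the type XXIV IDs col24a1 and ENSDARG00000069904, which may be pieces of 1 gene. Types XXIV and XXVII were counted with the fibrillar class, and its count and median without them were not taken. The alpha-2 chain of type I, the main collagen of skin, tendon and bone, is encoded by col1a2. It had 89 control and 196 morphant reads (1.56 and 3.39 RPKM), a ratio of 2.17 (1.68 to 2.82). Its partner chain gene col1a1a had 127 and 170 reads (2.21 and 2.92 RPKM), a ratio of 1.32 (1.04 to 1.67). Per length, col1a1a was at 1.42 times the level of col1a2 in the control (1.07 to 1.88) and at 0.860 times in the morphant library (0.696 to 1.06). These intervals lie just apart, cover counting error only and come from 1 library each. A change in the proportion of the chains was not tested. Control reads covered 37.1% of the length of col1a1a and 44.3% of that of col1a2. The second alpha-1 gene of type I, col1a1b, was barely read, with 14 and 28 reads.

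Type V and XI chains join the fibres of types I and II and set their diameter. The type V gene COL5A1 (ENSDARG00000012593) had 210 control and 370 morphant reads (2.21 and 3.84 RPKM), a ratio of 1.73 (1.46 to 2.06). The type XI gene col11a1b had 128 and 183 reads, a ratio of 1.41 (1.12 to 1.78). Type II is the collagen of cartilage and of the notochord sheath. The alpha-1(II) gene ENSDARG00000011407, the most abundant fibrillar member, had 610 and 717 reads (16.3 and 18.9 RPKM), a ratio of 1.16 (1.04 to 1.29), smaller than that of most fibrillar members. Minor fibrillar chains differed among themselves. The type XXIV chain, a fibrillar chain known in mouse from developing bone, was listed under 3 gene IDs. ENSDARG00000069904 (28 and 53 reads, 1.86-fold, 1.16 to 3.06) and col24a1 (20 and 33, 1.62-fold, 0.905 to 2.99) share the same best protein match, so they may be pieces of 1 gene. The type XXVII gene col27a1a, of the cartilage and notochord in zebrafish, had 86 and 80 reads, a ratio of 0.916 (0.667 to 1.26), and was the only fibrillar gene of the 8 below 1. The remaining 4, col11a2, col5a2b, col5a3b and si:dkey-61l1.4, had 10 to 20 reads over both libraries, with intervals that held 1.

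FACIT collagens with 50 reads or more had a median log2 ratio of 0.71, the highest of the classes at that minimum. All 7 had ratios above 1, where 54.3% of all genes had a log2 ratio above 0. Over the members with 10 reads or more the order turned, with 0.55 for FACIT and 0.72 for fibrillar genes. The type XIV gene COL14A1 (ENSDARG00000005762), whose product binds type I fibres and regulates their growth, had 154 control and 395 morphant reads (2.41 and 6.08 RPKM). Its ratio of 2.53 (2.09 to 3.06) was the highest of the 27, and its place in the order of levels went from 16 to 10. The second type XIV gene, col14a1b, had 19 and 17 reads and an interval of 0.430 to 1.79. Type IX, the FACIT that coats type II fibres, is built of 3 chains, and the most abundant member gene of each was higher, with overlapping intervals. The alpha-1(IX) gene ENSDARG00000074745 had 69 and 134 reads, a ratio of 1.91 (1.42 to 2.59). A more abundant alpha-1(IX) gene, col9a1b, is no member because its protein match is worded differently. It had 214 and 257 reads (7.71 and 9.11 RPKM), a ratio of 1.18 (0.982 to 1.42) whose interval held 1. COL9A2 (ENSDARG00000024492) had 133 and 236 reads, a ratio of 1.75 (1.41 to 2.18), and col9a3 had 171 and 230 reads, a ratio of 1.32 (1.08 to 1.62). Per length COL9A2 stood at 0.765 times col9a3 in the control (0.606 to 0.966) and at 1.01 times (0.839 to 1.22) in the morphant library. These intervals overlap, and a change in the proportion of the chains was not tested. A further alpha-3(IX) gene, ENSDARG00000090467, had 11 reads in each library.

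Type XII collagen, found on fibres of dense connective tissue and at basement membranes, was represented by 2 gene IDs. COL12A1 (ENSDARG00000019601) had 103 and 137 reads (1.31-fold, 1.01 to 1.71) and col12a1a had 30 and 51 (1.67-fold, 1.05 to 2.72). The gene col16a1, whose best protein match is named alpha-1(XIX), had 161 and 262 reads, a ratio of 1.60 (1.31 to 1.96). Both types are FACITs, so its class does not depend on the name. The type XXI gene si:dkey-225n22.4 had 12 and 17 reads.

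Type IV collagens did not share the higher level of these classes, a difference that was not tested. None of the 6 was past 1.5-fold in either direction (background 6.56% higher and 3.4% lower), which for so few genes lies near those shares. Of the 6, 5 had a log2 ratio below 0, where 54.3% of all genes were above 0, and their median was -0.18. Basement membranes of most tissues are built of the alpha-1 and alpha-2 chains, while alpha-5 and alpha-6 chains form a network of their own in skin and smooth muscle of mammals. In these embryos the alpha-5 and alpha-6 genes were the abundant ones. Per length, col4a5 stood at 4.40 times the level of col4a1 in the control (3.96 to 4.90) and at 3.87 times in the morphant library (3.47 to 4.31). For col4a6 the libraries held 2266 control and 2071 morphant reads, a ratio of 0.90 (0.847 to 0.955). For col4a5 they were 1987 and 1737, a ratio of 0.861 (0.807 to 0.918). In the RefSeq annotation (GRCz12tu) col4a5 and col4a6 are neighbouring protein-coding genes, and so are col4a1 and col4a2. Levels of col4a5 and col4a6 were near-equal in both libraries. Per length, the ratio of col4a5 to col4a6 was 1.10 (1.04 to 1.17) in the control and 1.06 (0.991 to 1.13) in the morphant library. Levels of col4a1 and the alpha-2(IV) gene ENSDARG00000020781 were not. There col4a1 stood at 1.97 times the other gene in the control (1.69 to 2.29) and at 1.74 times in the morphant library (1.505 to 2.02). Control reads covered 84.5% of the listed length of col4a1 and 69.5% of that of ENSDARG00000020781. The part of the listed lengths in this difference was not tested. ENSDARG00000020781 received no symbol, and whether it is col4a2 was not tested.

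The col4a1 gene had 421 and 419 reads (7.14 and 6.99 RPKM), a ratio of 0.980 (0.854 to 1.12). The alpha-2(IV) gene ENSDARG00000020781 had 288 and 323 reads, a ratio of 1.10 (0.939 to 1.30), and was the only type IV member above 1. Both intervals held 1. COL4A4 (ENSDARG00000002831, best match alpha-2(IV)) had 119 and 90 reads, a ratio of 0.745 (0.560 to 0.987). The gene col19a1 entered the class by its protein match, alpha-1(IV). Its symbol names a FACIT collagen, and the authors' KEGG annotation places it with the fibrillar group, so its class is uncertain. It had 126 and 107 reads, a ratio of 0.836 (0.640 to 1.09). Placed with the FACIT class instead, it moved the type IV median to -0.15 and the FACIT median to 0.69.

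**Figure D4:**
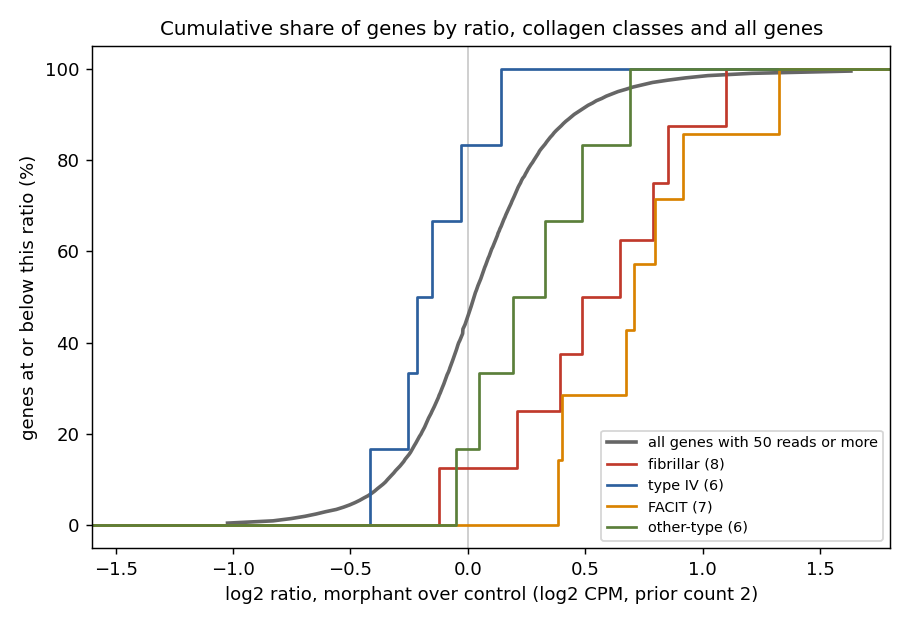
Cumulative share of genes (%) against log2 ratio, morphant over control, for all genes with 50 reads or more and for the members of each class. The type IV line lies left of the line of all genes over most of its range, and the fibrillar and FACIT lines lie to the right of it, with medians of 0.57 and 0.71 against 0.03.

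Among the other types, 5 of 6 genes with 50 reads or more were above 0 (54.3% of all genes). Of the 6, 1 was at least 1.5-fold higher (background 6.56%), and the median log2 ratio was 0.26. The most abundant member, col8a1a, had 986 control and 1402 morphant reads (44.2 and 61.8 RPKM). Its ratio was 1.40 (1.29 to 1.52). Its possible partner chain gene col8a2 had only 13 and 10 reads. Type VII collagen makes the fibrils that anchor the epidermal basement membrane to the tissue below. The gene col7a1 had 48 and 80 reads, a ratio of 1.64 (1.13 to 2.40). The related col7a1l was listed under 2 gene IDs with the same protein match, between which reads may be split. ENSDARG00000069692 had 504 and 644 reads (1.26-fold, 1.12 to 1.42) and the fragment ENSDARG00000093135 had 79 and 92 (1.15-fold, 0.840 to 1.57). The alpha-1(XIII) gene ENSDARG00000091398, a transmembrane collagen of cell adhesions, had 61 and 64 reads (1.03-fold, 0.716 to 1.49). Type VI collagen builds beaded filaments around cells, and its chain genes were little read. The col6a2 gene had 49 and 48 reads (0.964-fold, 0.634 to 1.47). The col6a1 gene had 18 and 12 reads, a ratio of 0.656 (0.288 to 1.44), and was the only member at least 1.5-fold lower. For col6a4a (1.17-fold, 0.630 to 2.2) and COL6A3 (1.17-fold, 0.569 to 2.43) the intervals were wide too, and all of these type VI intervals held 1.

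Over all 41 members, 15 were at least 1.5-fold higher (background 11.8% of the 17810 genes with 10 reads or more) and 1 as much lower (background 6.92%), while 4 were at least 2-fold higher (background 5.12%). Of the 14 members with 10 to 49 reads, 10 had a ratio above 1 and only 2 had an interval that did not hold 1. Of all genes with 10 reads or more, 54.2% had a log2 ratio above 0. Shares over all genes with 10 to 49 reads were not computed, so neither count has a background at that depth. The members with an interval apart from 1 are named next. These were col1a1b (1.97-fold, 1.002 to 4.05) and col17a1a, which had 12 and 33 reads (2.71-fold, 1.36 to 5.76). Type XVII collagen is the transmembrane collagen of hemidesmosomes, which fix epidermal cells to their basement membrane. At the edge of the read rule, si:dkey-61l1.4 (3 and 7 reads) and col17a1b (4 and 6) were just inside with 10 reads each. Both reached the rule through their morphant reads, and both are among the 10 with a ratio above 1. The gene si:dkey-61l1.4 is also among the 15 at least 1.5-fold higher and the 4 at least 2-fold higher. Just outside were col4a3 (3 and 6 reads), with 9, and si:ch73-182o2.1 (5 and 3) and the alpha-3(VI) gene ENSDARG00000095915 (3 and 5), with 8 each. The 13 matching IDs below the rule held 37 reads in all, and 3 of them had none in either library.

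The text rule misses collagens whose protein match is worded differently. A search by symbol and by other wordings, made after the members' values were seen, found 13 further IDs with 10 or more reads, 9 of them with 50 or more. Of these 9, 3 were at least 1.5-fold higher (background 6.56%), none was as much lower, and the median log2 ratio was 0.40. They included the col2a1a gene (ENSDARG00000069093), the main type II gene of the notochord, with 1716 control and 2962 morphant reads (29.2 and 49.6 RPKM, 1.70-fold, 1.60 to 1.80). The type XI gene COL11A1 (ENSDARG00000026165) had 878 and 1385 reads (1.55-fold, 1.43 to 1.69), and the type V genes COL5A2 (ENSDARG00000031678) and col5a3a (ENSDARG00000077739) had ratios of 1.48 (1.32 to 1.66) and 1.82 (1.43 to 2.33). Basement-membrane proteoglycan collagens had ratios nearer to 1. The gene col18a1a had 4227 and 5116 reads (1.19-fold, 1.14 to 1.24) and col15a1b had 1552 and 1647 (1.04-fold, 0.974 to 1.12). A further type XV ID, ENSDARG00000074639, was lower, with 65 and 53 reads (0.803-fold, 0.548 to 1.17) and an interval that held 1.

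The list of genes that process and export collagen covers chain hydroxylation, folding, propeptide removal and cross-linking. Of its 31 genes with 50 reads or more, 2 were at least 1.5-fold higher (background 6.56%) and 1 as much lower (background 3.4%), and the median log2 ratio was 0.09. The lysyl oxidase gene loxl2b, whose enzyme cross-links collagen, had 16 and 43 reads (2.65-fold, 1.46 to 5.03). With so few control reads, it reached the read minimum through its morphant reads. The propeptidase gene ADAMTS3 had 40 and 63 reads (1.55-fold, 1.03 to 2.37). The propeptidase gene tll1 had 492 and 326 reads (0.652-fold, 0.565 to 0.752). The collagen chaperone genes of the Hsp47 family differed from each other, with serpinh1a at 2617 and 3965 reads (1.49-fold, 1.42 to 1.57) and serpinh1b, named after its value was seen, at 5393 and 5018 (0.916-fold).

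Among basement membrane partners (laminins, nidogens and the Fras and Frem proteins), 4 of 20 genes were at least 1.5-fold higher (background 6.56%) and 1 as much lower (background 3.4%), with a median log2 ratio of 0.06. The genes tinagl1 (205 and 401 reads, 1.93-fold, 1.62 to 2.29), frem2b (68 and 114, 1.65-fold, 1.21 to 2.26) and frem1a (22 and 37, 1.66-fold, 0.951 to 2.95) were higher. With 22 control reads, frem1a reached the read minimum through its morphant reads, and its interval held 1. The related frem1b was lower, with 873 and 567 reads (0.639-fold, 0.574 to 0.712). Other fibre and matrix genes had a median of 0.18 over 18 genes, with 2 at least 1.5-fold higher (background 6.56%) and 1 lower (background 3.4%). With TMM scaling 0 of them were higher (background 5.69%). The small proteoglycan gene DCN, whose product binds collagen fibres, had a ratio of 1.53 (1.01 to 2.33), fbln1 1.501 (1.31 to 1.73), emilin2a 1.47 (1.11 to 1.94) and thbs3a 0.648 (0.451 to 0.925).

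Genes of matrix receptors and of collagen breakdown were fewer. The receptor list holds collagen receptors and also laminin receptors, among them itga3a, itga3b, itga6b, itgb4 and dag1. None of 11 receptor genes was past 1.5-fold (background 6.56% higher and 3.4% lower), and the median was -0.05. For so few genes this count lies near those shares. The integrin gene itga10 had a ratio of 0.724 (0.516 to 1.01), the collagen receptor kinase gene DDR1 1.30 (1.11 to 1.52), itga3a 1.27 (0.722 to 2.26) and the dystroglycan gene dag1 0.841 (0.813 to 0.871). Of 7 breakdown genes 2 were at least 1.5-fold higher (background 6.56%), and the median was 0.17. With TMM scaling 1 breakdown gene was that much higher (background 5.69%). MMP2, a gelatinase that cleaves denatured and type IV collagen, had 367 control and 1300 morphant reads (12.2 and 42.6 RPKM, 3.49-fold, 3.10 to 3.93). The gene of its membrane-bound activator mmp14a had 136 and 210 reads (1.52-fold, 1.22 to 1.90), and the inhibitor gene timp2b 95 and 137 (1.42-fold, 1.08 to 1.86). The cathepsin gene ctsk had 50 and 38 reads (0.748-fold, 0.477 to 1.16).

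**Figure D5:**
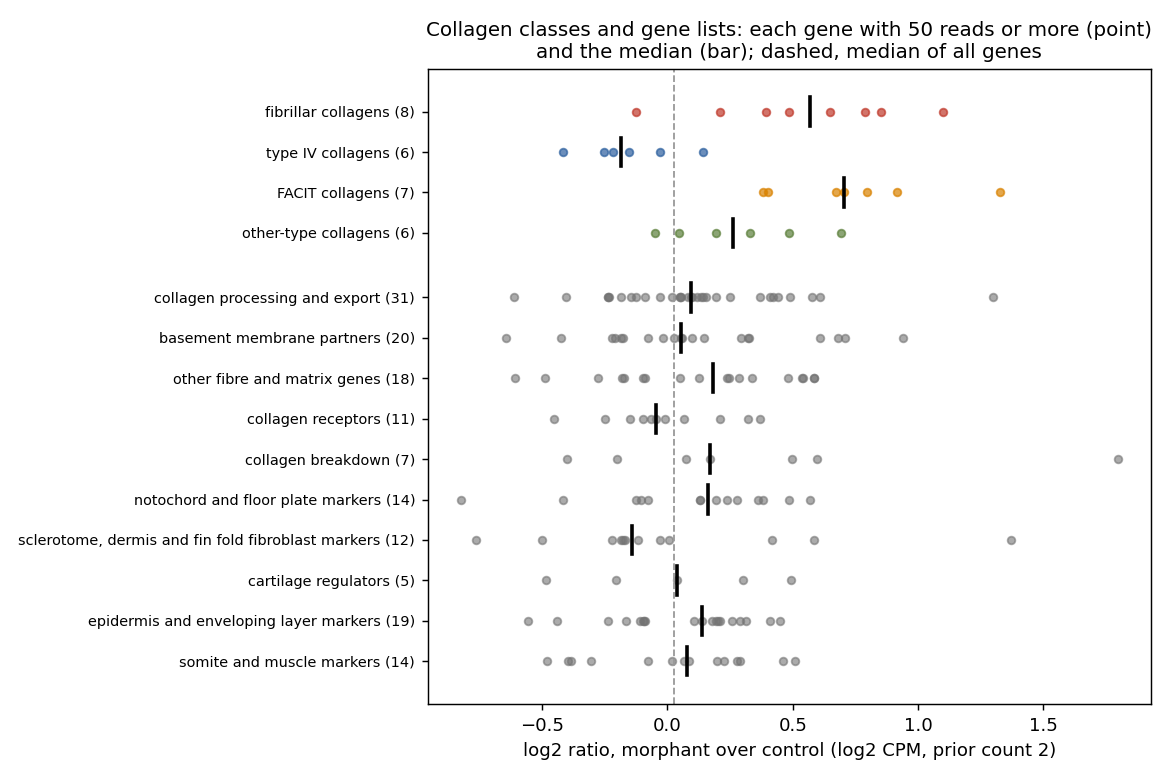
Log2 ratio, morphant over control, of each gene with 50 reads or more (points) in the collagen classes and in the other gene lists, with the median of each (bars) and the median of all genes (dashed line). The list medians lie between -0.14 and 0.18, and those of the fibrillar and FACIT classes at 0.57 and 0.71.

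Markers of tissues that make collagen had list medians between -0.14 and 0.16, and their part in the collagen differences was not tested. Notochord and floor plate markers had a median log2 ratio of 0.16 over 14 genes, with 9 above 0 (54.3% of all genes), near that share for so few genes. They summed to 903 CPM in control and 940 CPM in morphant embryos. This list holds the collagen member col8a1a, and the median was 0.13 without it. The sums include its 986 control and 1402 morphant reads and were not taken without it, so they do not show a higher level of the other markers. The 4 largest ratios were those of chrd (0.564, 0.515 to 0.616), ccn2a (1.49, 1.15 to 1.95), col8a1a and noto (0.744, 0.565 to 0.978). Markers of sclerotome, dermis and fin fold fibroblasts had a median of -0.14 over 12 genes, with 4 above 0 (54.3% of all genes), and summed to 585 and 532 CPM. Against the same background of 6.56% higher and 3.4% lower, tnfaip6 (22 and 61 reads, 2.73-fold, 1.65 to 4.67) and fbln1 were at least 1.5-fold higher. With 22 control reads, tnfaip6 reached the read minimum through its morphant reads. The gene twist2 was as much lower (0.580, 0.405 to 0.823), and cxcl12a of the same list was at 0.706 (0.649 to 0.767). The sums of this list include the 1343 control and 963 morphant reads of cxcl12a. They were not taken without it, so they do not show a lower level of the other markers.

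The remaining marker lists had no gene past 1.5-fold (background 6.56% higher and 3.4% lower). The list of cartilage regulators had a median of 0.04 over 5 genes (-0.0025 with TMM scaling) and summed to 280 and 253 CPM. It had sox6 at 1.42 (1.07 to 1.88), sp7 at 0.715 (0.637 to 0.802), cnmd at 1.24 (0.829 to 1.87) and sox9b at 0.867 (0.790 to 0.951). Of these, sp7 is a regulator of bone-forming cells, and the sums include its 712 control and 517 morphant reads. Epidermis and enveloping layer markers had a median of 0.14 over 19 genes and summed to 21478 and 23237 CPM, with cdh1 at 0.681 (0.644 to 0.720), cldni at 1.37 (1.24 to 1.51), pfn1 at 0.736 (0.704 to 0.769) and foxi3a at 1.34 (0.989 to 1.82). Somite and muscle markers had a median of 0.08 over 14 genes and summed to 1226 and 1140 CPM, with the troponin gene tnnc2.2 at 1.43 (1.16 to 1.76), msgn1 at 0.716 (0.658 to 0.779), actc1b at 1.38 (1.22 to 1.56) and MYF5 at 0.758 (0.667 to 0.862). The muscle myosin gene myhz2 had no read in either library. In these 5 marker lists it was the only gene found by symbol that had none.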

How the data were processed

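The RNA tables deposited by the authors give, per the file headers, raw counts of uniquely assigned reads by Ensembl gene, the RPKM and the covered fraction of each gene's length. The submitters' processing notes list HTSeq 0.6.1, TopHat2, BWA and MACS2 without saying what each did. Neither genome build nor strand setting is given in the sources used here, so overlapping and antisense genes cannot be told apart. Each table holds 25022 rows; rows sharing an ID were summed and a dash was read as 0. Symbols came from an Ensembl ID table or, where it gave none or a capital name, from the RefSeq gene of the listed protein. Of the 41 members, 30 received a lower-case symbol, 7 a capital name and 4 none.

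Ratios are of CPM without a prior. Log2 ratios used edgeR 4.0.16 (R 4.3.3) scaled to total reads, with a prior count of 2; TMM, DESeq2 1.42.0 size factors, other read minimums and RPKM with a pseudocount of 1 were alternatives. Read totals of 9.90 and 10.05 M (megareads) set the precision. No test was made, because each group has 1 library. The steps were tested on simulated data (Python 3.11.15, SciPy 1.17.1).

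The members and the 10 gene lists were chosen with earlier results of these data known. In each class the 4 members of highest mean RPKM and all past 1.5-fold are named with intervals, and of each other list up to 4 by size of ratio, by log2 ratio. List genes were matched by symbol, ignoring case; genes not found did not enter. Classes follow the type in the protein text; types XXIV and XXVII were counted as fibrillar. The MeDIP peak lists were not used here.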

Additional observations from a re-analysis of the deposited data

How the results depend on the processing

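Each class median kept its sign under every alternative run, and the median of all members lay between 0.30 (RPKM with a pseudocount of 1) and 0.40 (without matches worded "-like" or partial, or with the genes missed by the text rule added). Counts depended more on the setting. With at least 10 reads, 15 members were at least 1.5-fold higher (11.8% of all genes) and 4 were 2-fold higher (5.12% of all genes). There 1 was 1.5-fold lower (6.92% of all genes). At that minimum 8 fibrillar and 2 other-type genes were at least 1.5-fold higher and 1 other-type gene lower. The fibrillar median (0.72) stood above the FACIT median (0.55). These fibrillar genes included si:dkey-61l1.4 (3 and 7 reads), which entered through its morphant reads. With at least 200 reads, 6 members were at least 1.5-fold higher (3.16% of all genes), among them 2 fibrillar and 0 other-type genes. On the RPKM scale, which understates the change of low genes, 6 members were at least 1.5-fold higher (3.33% of all genes) and 1 was at least 2-fold higher. There 3 FACIT and 0 other-type genes were past 1.5-fold, and the log2 ratio of COL14A1 was 1.05. At 4-fold there were 0 members. Shares over all genes are not given for 4-fold or for 2-fold on the RPKM scale.

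In the notochord list and in the somite and muscle list the counts past 1.5-fold were the same under every setting run, and in the other lists they changed. With TMM scaling 5.69% of all genes were 1.5-fold higher and 3.95% lower. There 0 other fibre and matrix genes, 1 breakdown gene and 1 sclerotome gene were higher, and 1 epidermis gene was lower. With DESeq2 size factors 1 gene was higher in each of the matrix, breakdown and sclerotome lists (6.10% of all genes). With at least 10 reads, 11.8% of all genes were 1.5-fold higher and 6.92% lower. There the numbers higher were 6 (basement membrane partners), 7 (matrix), 2 (receptors), 4 (breakdown) and 5 (sclerotome). Those lower were 3 (processing), 2 (basement membrane partners), 3 (matrix), 1 (breakdown), 2 (sclerotome), 1 (cartilage) and 1 (epidermis). With at least 200 reads, 3.16% of all genes were 1.5-fold higher and 2.1% lower. At that minimum the numbers higher were 0 (processing), 1 (basement membrane partners), 1 (matrix) and 1 (sclerotome), and 0 matrix and 0 sclerotome genes were lower. On the RPKM scale (3.33% of all genes higher and 1.89% lower) the numbers higher were 1 (processing), 1 (basement membrane partners), 0 (matrix), 1 (breakdown) and 1 (sclerotome). On that scale 0 processing and 0 matrix genes were lower. Read minimums change which genes enter and so the size of each list, and the changed sizes are not given here. The scalings set the library size, morphant over control, at 1.044 (TMM) and 1.030 (DESeq2 size factors), against 1.016 with total reads. Within each scaling all ratios are therefore lower by the same factor. The median of all genes was -0.01 with TMM scaling. The class of col19a1, list medians without collagens and the genes added to the members were alternatives chosen after seeing the data. The prior count does not enter the counts of genes. No paired analysis was possible because the RNA groups have 1 library each. Depth limits the 14 members with 10 to 49 reads, of which only 2 had an interval that did not hold 1. The share of all genes of that depth with such an interval was not computed.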
